A study of Mus musculus with 33 samples.

Results

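The VK genes examined here are the 8 central genes IGKV13-84, IGKV13-85, IGKV4-86, IGKV1-88, IGKV12-89, IGKV4-90, IGKV4-91 and IGKV4-92 of the mouse Igk locus. They were chosen by name, as the listed genes that lie around the E88 enhancer, and stand beside 155 other VK genes with a value in the data. Their use in VK-JK joints was measured by VDJ-seq, which captures joined segments from genomic DNA with JK primers and counts the VK gene in each joint. The cells were sorted directly from the bone marrow of C57BL/6 mice that were 4 to 5 weeks old. The surface markers of the sort included B220+IgM-IgD-, with Kit+CD25- for pro-B and Kit-CD25+ for pre-B cells. There were 6 pro-B and 4 pre-B libraries of each of the genotypes Wapl+/+ (wild-type) and Wapl ∆P1,2/∆P1,2 (mutant). The mutant allele lacks P1, a site of the Wapl promoter that Pax5 binds, and a region downstream of Wapl that holds the Pax5 site P2, so that the repression of Wapl by Pax5 is lost in early B cells. Both alleles carry it in these mice. A list of H3K27ac peaks of Rag1 Cre/Cre pro-B cells (1 library) was also used. How many mice stand behind a library is not given in the sources used here, and the p-values measure the spread between libraries.

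Each VK gene encodes most of the variable domain of an immunoglobulin kappa light chain, and RAG recombinase joins 1 of them to a JK segment. It cuts at a recombination signal sequence (RSS) beside the gene, made of a heptamer, a short spacer and a nonamer. A gene in forward orientation is joined by deletion of the DNA in between, and a gene in reverse orientation by inversion. Wapl releases cohesin from chromatin and thereby limits how far loop extrusion can go. E88 is an enhancer inside the VK gene cluster that is known from deletion studies to shape the folding of the locus and the use of VK genes.

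E88 spans chr6:68812295-68812415 (mm9), 121 bases that lie wholly within the second exon of IGKV1-88, in its coding sequence. Its plus strand, opposite to the strand of that gene, is shown because all distances below are counted from it.
E88: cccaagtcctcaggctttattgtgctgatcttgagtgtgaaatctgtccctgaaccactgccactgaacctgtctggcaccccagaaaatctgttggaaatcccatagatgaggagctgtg
Of its bases 49.6% were G or C, against a median of 38.0% over 26021 windows of the same length tiled across the VK cluster, of which 9.88% reached that share. Because the enhancer is part of a V exon, similar sequence occurs elsewhere in the locus. In 15 other VK genes at least 90% of E88 could be aligned by blastn, with 69.1% to 87.5% identity, and 8 of these genes belonged to the VK1 family.

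The 8 genes and their RSSs lie on chromosome 6 (mm9) as follows, from the JK-proximal to the distal end. IGKV13-84 (68889596-68890061), IGKV13-85 (68880263-68880728) and IGKV4-86 (68860405-68860932) lie 77.2, 67.8 and 48.0 kb from E88 on its JK-proximal side. IGKV1-88 (68812259-68813025) contains it. On the distal side IGKV12-89 (68784840-68785301), IGKV4-90 (68757174-68757702), IGKV4-91 (68718549-68719097) and IGKV4-92 (68705032-68705587) lie 27, 54.6, 93.2 and 107 kb away. The 8 genes cover 185 kb. All are classed as functional in the study's gene list, 7 are in reverse orientation, and IGKV13-84 is the only one in forward orientation. The GENCODE annotation of the same assembly holds 7 of them as V genes with 2 coding exons, and has no gene at the position of IGKV13-85. The RSSs are given because they are the sites at which these genes are cut. Capitals mark the heptamer and the nonamer, read in the direction of each gene.
IGKV13-84: CACAGTGatacaagccatgACATAAACC
IGKV13-85: CACAGTGacacaagccatgACATAAACC
IGKV4-86: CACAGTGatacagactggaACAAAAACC
IGKV1-88: CACAGTGatttataccccaACAAAAACT
IGKV12-89: CACAGTGattcaagccatgACATAAATC
IGKV4-90: CACAATGatacagactggaACAAAAACC
IGKV4-91: CACCGTGctacagactaaaACAAGAACC
IGKV4-92: CACAGTGctacagagtggaACAAAATGC
Against the consensus heptamer CACAGTG and nonamer ACAAAAACC, with a spacer of 12 bases in all 8 genes, only IGKV4-86 had no mismatch. The other 7 members had 1 or 2 mismatches, and the median of 1 was that of all 92 functional VK genes. Heptamer and nonamer were both perfect in 12.5% of the members, against 36.9% of the 84 functional genes outside them. A perfect heptamer was found in 6 of 8 members and in 91.7% of the 84 functional genes outside them. The 2 members with another heptamer were IGKV4-90 and IGKV4-91. The octamer ATGCAAAT, the common element of VK promoters, was found on either strand within 250 bases before the listed start of 7 members and of 72.8% of all functional VK genes. IGKV1-88 was the member without this match. IGKV13-84 and IGKV13-85 are 96.6% identical over their whole length, so that reads from one could be assigned to the other. Each of the other 6 members was at most 90.9% identical to any other VK gene along 90% or more of its length.

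All values below are percentages of the VK-JK joints of a library, obtained by rescaling the deposited values to a sum of 100 over all listed VK genes. Read numbers are not given in the sources used here, so the depth is unknown. Before rescaling, the VK genes of a library summed to between 4.87% and 6.77% in pre-B cells, but to only 0.0740% to 0.176% in Wapl+/+ and 0.152% to 0.377% in mutant pro-B cells. Pro-B values were also coarser. The smallest rescaled value above 0 in a library was at most 0.0122% in pre-B cells and at most 0.0840% in 11 of the 12 pro-B libraries. The remaining library, replicate 2 of the Wapl+/+ pro-B cells, had a smallest value of 0.610% and listed 102 genes at 0, against 53 to 65 genes in the other pro-B libraries. Where it changes a call or a direction among the 8 genes, the value without it is also given.

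In Wapl+/+ pre-B cells the 8 genes were used at low to medium frequency. IGKV1-88 had the highest mean of the 8, 1.40% ± 0.0897 (SD, n = 4), which ranked 25 among all VK genes. It was followed by IGKV4-86 (1.07% ± 0.0934), IGKV13-85 (0.934% ± 0.0570), IGKV13-84 (0.722% ± 0.0650), IGKV12-89 (0.621% ± 0.0350), IGKV4-92 (0.449% ± 0.0237), IGKV4-91 (0.213% ± 0.00410) and IGKV4-90 (0.133% ± 0.0197). The ranges of IGKV4-86 and IGKV13-85 overlapped, whereas every other pair of neighbours in this order was separated in all 4 libraries. IGKV4-90 and IGKV4-91, the pair with an altered heptamer, were the least used members in each of the 4 groups of libraries. That is a description of 8 genes, which are not replicates. The 2 pseudogenes between the members, IGKV13-87 and IGKV13-89-1, were listed at 0 in all 20 libraries.

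The first question was whether these genes are used differently when Wapl is no longer repressed in pre-B cells. In mutant pre-B cells 7 of the 8 genes rose and none fell, whereas 21.5% of the 107 genes tested rose (limma on log2 of the percentage plus 0.05, Benjamini-Hochberg adjusted p below 0.05). The median log2 fold change was 0.67 over the 8 genes and -0.18 over all 107 genes, of which 49 fell. In 6 of the 8 genes every mutant library exceeded every wild-type library, as in 20.6% of all genes tested. All 8 genes had a mean above the filter of 0.05% in both genotypes, so none entered the test through 1 group alone.

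IGKV4-92, the member farthest from E88, changed most and had the largest rise of all 107 genes. Its values were 0.464%, 0.454%, 0.463% and 0.414% in the wild-type libraries and 1.05%, 1.35%, 0.984% and 1.5% in the mutant libraries. Each mutant value was above all wild-type values, and the log2 fold change was 1.33 (SE 0.11, adjusted p = 5.78e-08). IGKV1-88, the gene that contains E88, had 1.42%, 1.51%, 1.30% and 1.38% in wild-type and 2.25%, 3.20%, 2.90% and 2.95% in mutant cells. Its mean reached 2.83% ± 0.407, 2.01 times that of wild-type cells, with a log2 fold change of 0.98 (SE 0.09, adjusted p = 2.04e-07), and it moved to rank 3 among all VK genes. This was the largest gain of the 8 in joints, 1.42 percentage points.

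IGKV4-86 had 1.18%, 1.10%, 0.967% and 1.01% in wild-type libraries and 1.56%, 2.17%, 1.79% and 2.29% in mutant libraries. The groups were separated, and the log2 fold change was 0.83 (SE 0.11, adjusted p = 4.85e-06). IGKV13-85, the more JK-proximal of the 2 reverse genes on that side, rose from 0.934% ± 0.0570 to 1.5% ± 0.188 (log2 fold change 0.65, SE 0.09, adjusted p = 1.15e-05). On the distal side IGKV4-91, a little used gene, rose from 0.213% ± 0.00410 to 0.389% ± 0.118 (0.70, SE 0.14, adjusted p = 0.000429). IGKV12-89, the nearest neighbour of E88 after IGKV1-88, rose less, from 0.621% ± 0.0350 to 0.908% ± 0.162 (0.50, SE 0.10, adjusted p = 0.000543). For these genes too the lowest mutant library was above the highest wild-type library.

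The other 2 genes stood lower. IGKV13-84, the forward gene, had 0.666%, 0.666%, 0.765% and 0.790% in wild-type and 0.775%, 0.977%, 0.788% and 0.935% in mutant cells. These groups overlapped, and its log2 fold change of 0.25 (SE 0.10) passed the test with all 8 libraries (adjusted p = 0.0302). It did not pass without wild-type replicate 1 (adjusted p = 0.0922), wild-type replicate 2 (0.0983) or mutant replicate 2 (0.111). IGKV4-90 had 0.155%, 0.132%, 0.107% and 0.136% in wild-type and 0.140%, 0.121%, 0.140% and 0.138% in mutant cells. Its log2 fold change was 0.02 with a 95% interval from -0.21 to 0.25 (adjusted p = 0.849), which does not reach the value of any of the 6 separated members. It lies 54.6 kb from E88, between IGKV12-89 and IGKV4-91, which both rose.

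**Figure D1:**
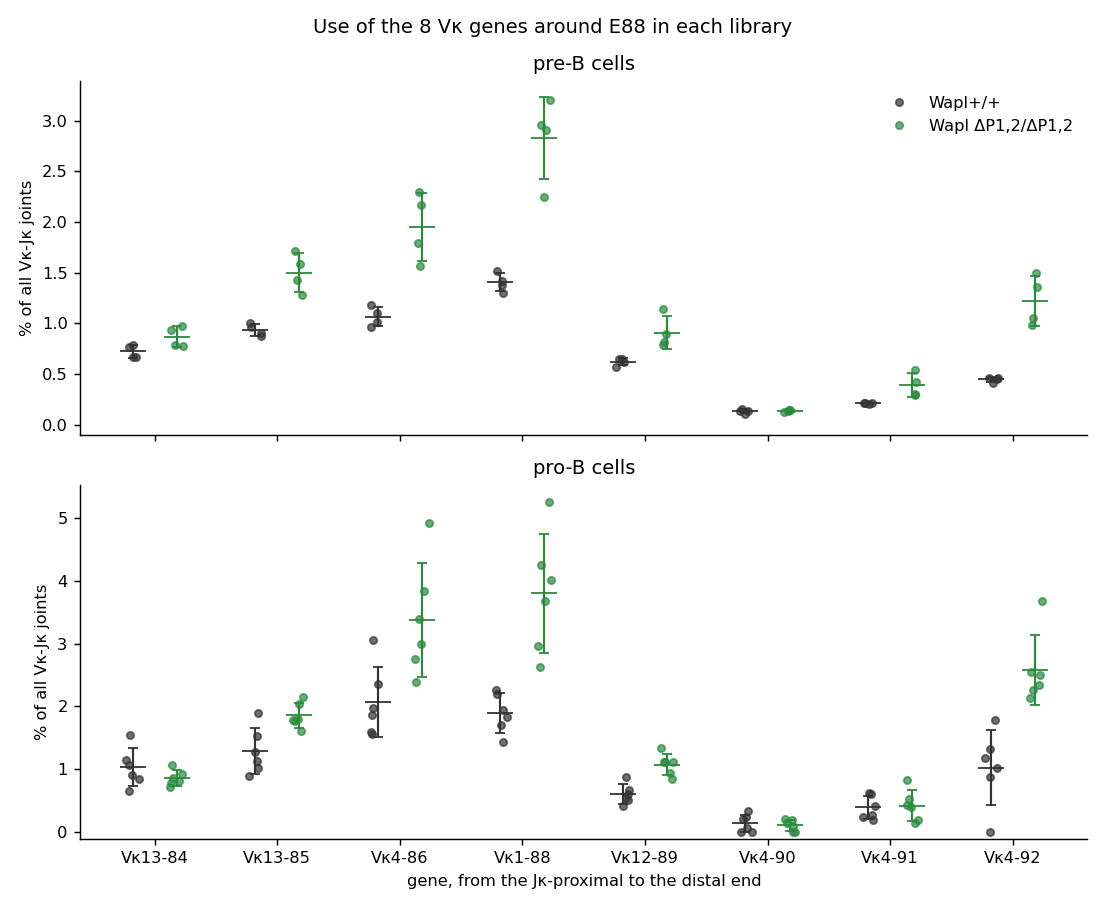
Use of the 8 genes in each library, as a percentage of all VK-JK joints (vertical axis), in pre-B cells (top, 4 libraries per genotype) and pro-B cells (bottom, 6 per genotype). Points are libraries, grey for Wapl+/+ and green for Wapl ∆P1,2/∆P1,2, with the mean and SD. In pre-B cells the green points of 6 genes lie wholly above the grey ones, and those of IGKV13-84 and IGKV4-90 do not.

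Summed over the 8 genes, the share of joints was 5.57%, 5.58%, 5.46% and 5.56% in the wild-type pre-B libraries and 8.16%, 10.7%, 9.12% and 11.2% in the mutant libraries. The sum thus varied little between wild-type libraries (5.54% ± 0.0560) and more between mutant libraries (9.80% ± 1.41). The difference of the means was 4.26 percentage points, of which IGKV1-88 made up 33.4%, IGKV4-86 20.8%, IGKV4-92 18.1% and IGKV13-85 13.3%. No test was run on this sum, since the genes were chosen with results of these data known. Within the sum, IGKV4-92 increased from 8.10% ± 0.458 to 12.4% ± 1.13 of the joints of the 8 genes, whereas IGKV13-84 decreased from 13% ± 1.25 to 8.90% ± 0.515. In neither case did the genotypes overlap. IGKV12-89 (11.2% ± 0.692 to 9.27% ± 0.940) and IGKV4-90 (2.40% ± 0.338 to 1.41% ± 0.270) decreased without overlap as well.

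The same comparison in pro-B cells asked whether the difference is already present at the earlier stage, in which VK genes rearrange rarely. In mutant pro-B cells 4 of the 8 genes rose and none fell, against 12.5% of 104 genes tested that rose. The median log2 fold change was 0.62 over the 8 genes and -0.26 over all genes tested. The genotypes did not overlap in 2 of the 8 genes, IGKV1-88 and IGKV4-92, as in 8.65% of all genes tested. Without replicate 2 of the wild-type cells 5 of the 8 genes rose, and 16.3% of the 104 genes tested. Of the 8 genes, 1 rose without mutant replicate 2, against 6.73% of all genes tested, and 2 rose without mutant replicate 3, 4 or 6, against 7.69% to 8.57%. Over all genes 13 rose and 14 fell, or 17 and 5 when each library was centred on its median, where 5 of the 8 genes rose.

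IGKV1-88 ranged from 1.43% to 2.27% in wild-type pro-B cells (median 1.89%) and from 2.63% to 5.25% in mutant cells (median 3.84%). The groups were separated, and the log2 fold change of 0.96 (SE 0.19, adjusted p = 0.00293) was close in size to the 0.98 in pre-B cells. It was the fifth most used gene in mutant pro-B cells. IGKV4-92 ranged from 0 to 1.78% in wild-type cells (median 1.10%) and from 2.13% to 3.67% in mutant cells (median 2.42%). The value of 0 was that of wild-type replicate 2, the coarse library. With it the log2 fold change was 1.82 (SE 0.65, adjusted p = 0.0470), and without it 1.05 (SE 0.20, adjusted p = 8.14e-05). Leaving out wild-type replicate 1, 3 or 5 or any single mutant library instead gave adjusted p-values between 0.0513 and 0.102.

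IGKV4-86 ranged from 1.57% to 3.05% in wild-type cells (median 1.92%) and from 2.38% to 4.92% in mutant cells (median 3.19%). It rose (0.69, SE 0.21, adjusted p = 0.0234), although the highest wild-type value, again that of replicate 2, overlapped the mutant values. Without that library the wild-type values reached 2.35%, just below the lowest mutant value, and the log2 fold change was 0.81 (SE 0.19, adjusted p = 0.000754). IGKV12-89 rose from a range of 0.428% to 0.886% (median 0.579%) to one of 0.843% to 1.33% (median 1.12%), which met at 1 library of each genotype (0.79, SE 0.23, adjusted p = 0.0234). The call of IGKV4-86 was lost without wild-type replicate 1 (adjusted p = 0.0508) or mutant replicate 2 (0.0512) or 3 (0.0552), and that of IGKV12-89 without mutant replicate 2 (0.0505), 4 (0.0576) or 6 (0.0556). IGKV13-85 had 1.29% ± 0.364 in wild-type and 1.86% ± 0.196 in mutant cells. Its log2 fold change of 0.54 (SE 0.20) missed the threshold with all 12 libraries (adjusted p = 0.0547) and passed it without wild-type replicate 1 (0.66, adjusted p = 0.0304) or 2 (0.60, adjusted p = 0.0125).

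The remaining 3 genes did not pass the test in pro-B cells. IGKV13-84 had 1.04% ± 0.306 in wild-type and 0.862% ± 0.122 in mutant cells (log2 fold change -0.22, 95% interval -0.71 to 0.27). IGKV4-91 had 0.398% ± 0.187 and 0.426% ± 0.244 (0.03, interval -0.87 to 0.92). IGKV4-90 had a value of 0 in 2 libraries of each genotype and at most 0.336% in any other (-0.13, interval -1.49 to 1.22). Without wild-type replicate 2 the log2 fold change was 0.16 (SE 0.37, adjusted p = 0.708) for IGKV4-91 and -0.44 (SE 0.53, adjusted p = 0.489) for IGKV4-90. With all libraries the intervals of both genes include the 0.70 measured for IGKV4-91 in pre-B cells, so that a difference of that size is not excluded.

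The sum of the 8 genes ranged from 7.64% to 9.74% in wild-type pro-B cells (median 8.51%) and from 10.7% to 16.6% in mutant cells (median 14.6%). The genotypes did not overlap, and the means were 8.48% ± 0.740 and 14.1% ± 2.13. Of the difference of 5.61 percentage points, IGKV1-88 made up 33.8%, IGKV4-92 27.6% and IGKV4-86 23.3%. The deposited sum over all VK genes was also higher in mutant pro-B libraries, as given above, and its part in these differences was not tested.

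The first digits of the experiment numbers place the libraries in series of unknown meaning, balanced over the genotypes (series 70 in pre-B cells, series 82 in pro-B cells, and 1 series with both). In both pre-B series the mutant mean was higher in at least 7 of the 8 genes, IGKV4-90 being the exception in series 70. The summed share was 5.57% and 9.43% in series 70, and 5.51% and 10.2% in the shared series, in wild-type and mutant cells. In pro-B cells the sums were 8.70% and 14.8% in series 82, and 8.25% and 13.4% in the shared series. IGKV13-84 was lower in mutant cells in both of these, and IGKV4-90 and IGKV4-91 in the shared series.

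**Figure D2:**
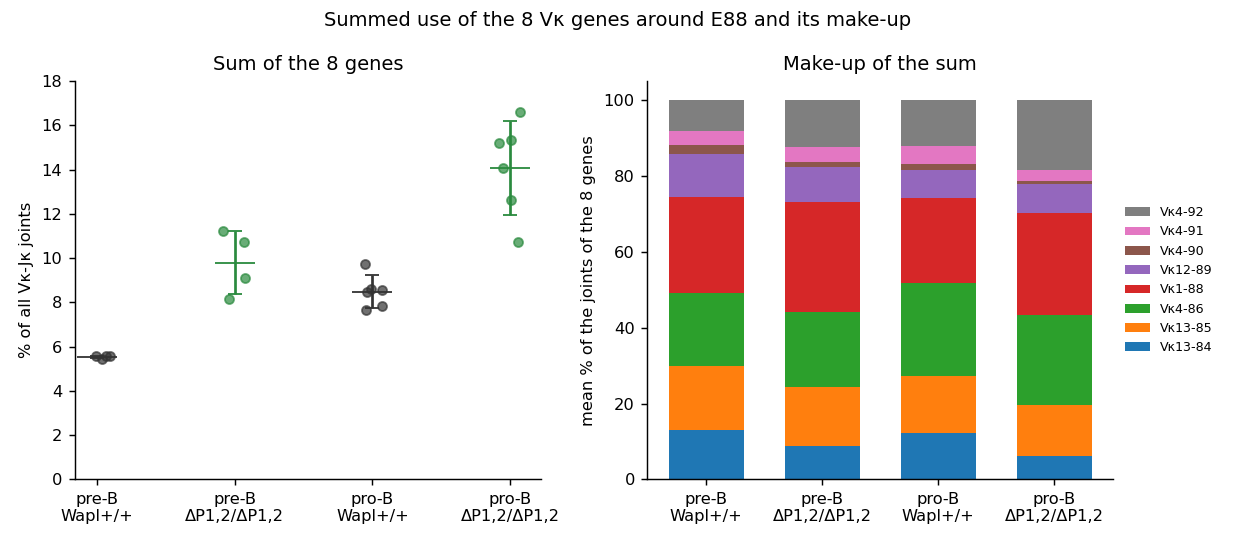
Left, the sum of the 8 genes in each library (points) with the mean and SD, as a percentage of all VK-JK joints. Right, the mean make-up of that sum in each group, in percent. The sums of the 2 genotypes are separated in both cell types, and the share of IGKV13-84 is smaller in the mutant bars.

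The 2 VK13 genes invite a direct comparison, since they are neighbours, nearly alike in sequence, identical in heptamer and nonamer, and opposite in orientation. The ratio of IGKV13-85 to IGKV13-84 was 1.22 to 1.35 in wild-type and 1.62 to 1.83 in mutant pre-B libraries. In pro-B cells it was 0.882 to 1.67 in wild-type libraries, or at most 1.35 without replicate 2, and 1.68 to 2.61 in mutant libraries. The ratio was thus higher in mutant cells without overlap. The difference in its log2 was 0.41 in pre-B cells and 0.79 in pro-B cells. This comparison was chosen after the values were seen, so that no p-value is given for it, and reads that fit both genes could lie on either side of it.

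Whether the genotype difference itself differs between the cell types was tested by the interaction term over all 20 libraries. With limma 0 of the 8 genes passed, against 1.89% of 106 genes tested, and 0 of the 8 had an unadjusted p below 0.05. The estimates ranged from -0.67 for IGKV4-91 (95% interval -1.82 to 0.47) to 0.49 for IGKV4-92 (-1.35 to 2.32). The narrowest interval was that of IGKV1-88, -0.52 to 0.49 around -0.01. The value of IGKV4-92 rested on the 0 in wild-type pro-B replicate 2 and was -0.29 (SE 0.26) without that library. The estimates then ranged from -0.54 for IGKV4-91 to 0.30 for IGKV12-89, and the lowest adjusted p among the 8 was 0.301.

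The study also compared pro-B with pre-B cells. In wild-type mice the sum of the 8 genes was higher in pro-B than in pre-B cells without overlap (8.48% ± 0.740 against 5.54% ± 0.0560). Of the 8 single genes 1, IGKV4-86, was higher in pro-B cells, a share close to the 10.5% of 105 genes tested. It rose from 1.07% ± 0.0934 in pre-B to 2.07% ± 0.559 in pro-B cells (0.89, SE 0.19, adjusted p = 0.0142). Without pro-B replicate 2, IGKV4-92 (1.33, adjusted p = 0.000407) and IGKV1-88 (0.42, adjusted p = 0.0459) passed as well. IGKV1-88 also passed without pro-B replicate 3 (0.48, adjusted p = 0.0342), and IGKV4-86 did not pass without pre-B replicate 3 (adjusted p = 0.0529) or 4 (0.0617). With the series of the libraries as a covariate its value was 0.91 (adjusted p = 0.156), and 0 of the 8 genes passed, against 1.9% of all genes tested. The median log2 fold change was -0.65 over all genes tested and 0.43 over the 8, and 11 genes were higher and 9 lower in pro-B cells. When each library was centred on its median 15 were higher and 0 lower, and 4 of the 8 genes passed.

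In mutant mice 2 of the 8 genes were higher in pro-B than in pre-B cells, against 12% of 100 genes tested. These were IGKV4-92, with 1.22% ± 0.245 in pre-B and 2.58% ± 0.558 in pro-B cells (1.04, SE 0.16, adjusted p = 7.42e-05), and IGKV4-86, with 1.95% ± 0.337 and 3.38% ± 0.908 (0.75, SE 0.18, adjusted p = 0.00240). With the series as a covariate IGKV4-92 still passed, whereas IGKV4-86 had 0.40 (adjusted p = 0.193) and did not. The median log2 fold change was -0.51 over all genes tested and 0.27 over the 8, with 12 genes higher and 42 lower. Centring turned this to 33 higher and 19 lower, with 6 of the 8 genes higher, among them IGKV13-84 (0.59, adjusted p = 0.0170), which had -0.01 before. Without pro-B replicate 5, 4 of the 8 genes passed, against 15% of all genes tested. IGKV13-85 (adjusted p = 0.0314) and IGKV1-88 (0.0170) were the additional ones. IGKV13-85 also passed without pre-B replicate 4 (0.0458), and IGKV1-88 without pro-B replicate 1 (0.0470). The sums were 9.80% ± 1.41 in pre-B and 14.1% ± 2.13 in pro-B cells and overlapped. These comparisons share their libraries with the genotype comparisons and are not independent of them. Only the shared series holds both cell types, and there the sums were 8.25% against 5.51% in wild-type and 13.4% against 10.2% in mutant cells.

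Distance from E88 did not order the 8 genes. In pre-B cells the log2 fold changes, read from the JK-proximal to the distal end, were 0.25, 0.65, 0.83, 0.98, 0.50, 0.02, 0.70 and 1.33. On the JK-proximal side the values thus decreased with distance from IGKV1-88 over IGKV4-86 and IGKV13-85 to IGKV13-84. On the distal side they fell to IGKV4-90 and then increased to the farthest gene. In pro-B cells the corresponding values were -0.22, 0.54, 0.69, 0.96, 0.79, -0.13, 0.03 and 1.82. Without wild-type replicate 2 the last 3 were -0.44, 0.16 and 1.05, so that IGKV4-92 stood close to IGKV1-88 (0.95).

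**Figure D3:**
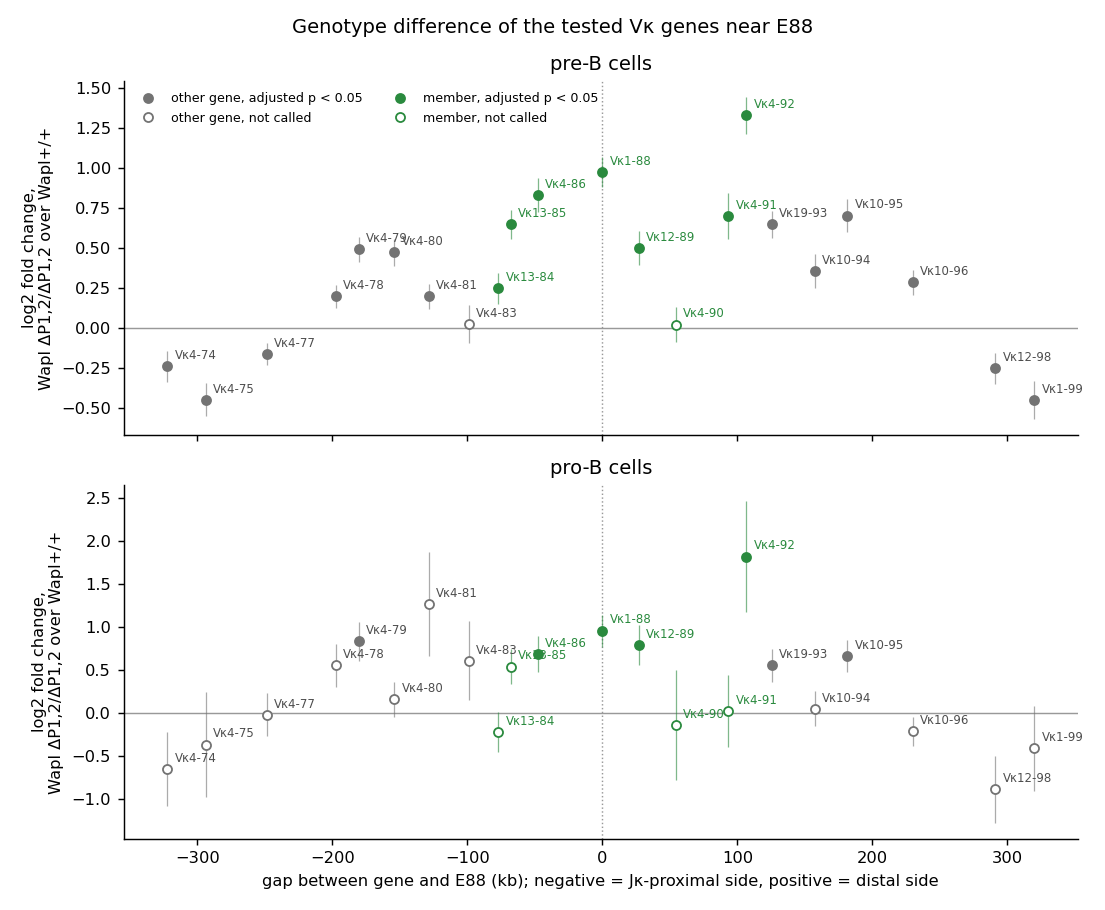
Log2 fold change between the genotypes with its SE (vertical axis) for the tested genes within 330 kb of E88, against the gap to E88 in kb (horizontal axis, negative on the JK-proximal side). Green symbols are the 8 genes and filled symbols have an adjusted p below 0.05. In pre-B cells the tested genes from IGKV4-78 to IGKV10-96 lie above 0 and those on either side of them below.

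The rise was not limited to the 8 genes. Of the 19 listed neighbours, 12 could be tested in pre-B cells. On the JK-proximal side 4 of 6 rose (IGKV4-78, IGKV4-79, IGKV4-80 and IGKV4-81, log2 fold changes 0.20 to 0.49), 1 fell (IGKV4-77, -0.16, lost when any of 5 libraries was left out) and IGKV4-83, classed as a pseudogene, had 0.03. On the distal side 4 of 6 rose. These were the much used IGKV19-93 (2.94% to 4.66%, 0.65), IGKV10-94 (0.36), IGKV10-95 (1.31% to 2.19%, 0.70) and IGKV10-96 (0.29). IGKV12-98 (-0.25) and IGKV1-99 (-0.45) fell. The calls of IGKV4-78, IGKV4-81 and IGKV12-98 were each lost when any of 4 libraries was left out (adjusted p between 0.0508 and 0.114). From IGKV4-78 on the JK-proximal side to IGKV10-96, which lies 230 kb from E88 on the other, all 17 genes tested had a positive value, and 15 of them passed. The bounds of this stretch were read from the values. In pro-B cells 1 of 6 JK-proximal neighbours (IGKV4-79) and 2 of 6 distal neighbours (IGKV19-93 and IGKV10-95) rose, and IGKV19-93 did not pass when any of 7 libraries was left out (adjusted p between 0.0632 and 0.0913). Without wild-type replicate 2 IGKV4-81 rose as well (0.56, adjusted p = 0.0307).

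Over the whole locus, 7 of 9 genes tested within 110 kb of E88 rose in pre-B cells and none fell, and 8 of them were the members. Between 110 and 250 kb 8 of 9 rose and 1 fell, with a median log2 fold change of 0.36. Between 250 and 500 kb none of 14 rose and 12 fell (median -0.25). Farther out 1 of 32 rose between 500 and 1000 kb, and 7 of 42 beyond 1000 kb. Across the 106 tested genes with a position, Spearman's rho between fold change and distance was -0.21. It was -0.61 over the 35 genes on the distal side and -0.01 over the 70 genes on the JK-proximal side. Within 250 kb it was -0.37 over 18 genes, with -0.60 over 9 genes on the JK-proximal and 0.05 over 8 genes on the distal side. In pro-B cells 4 of 9, 3 of 9, 0 of 14, 2 of 32 and 4 of 39 genes rose in the same bins, and rho was -0.39 over 103 genes. It was -0.70 over 35 distal and -0.28 over 67 JK-proximal genes, and -0.21 over the 18 genes within 250 kb. Genes of a library share its total and are not independent, and the 3 nearest bins hold under 20 genes each.

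**Figure D4:**
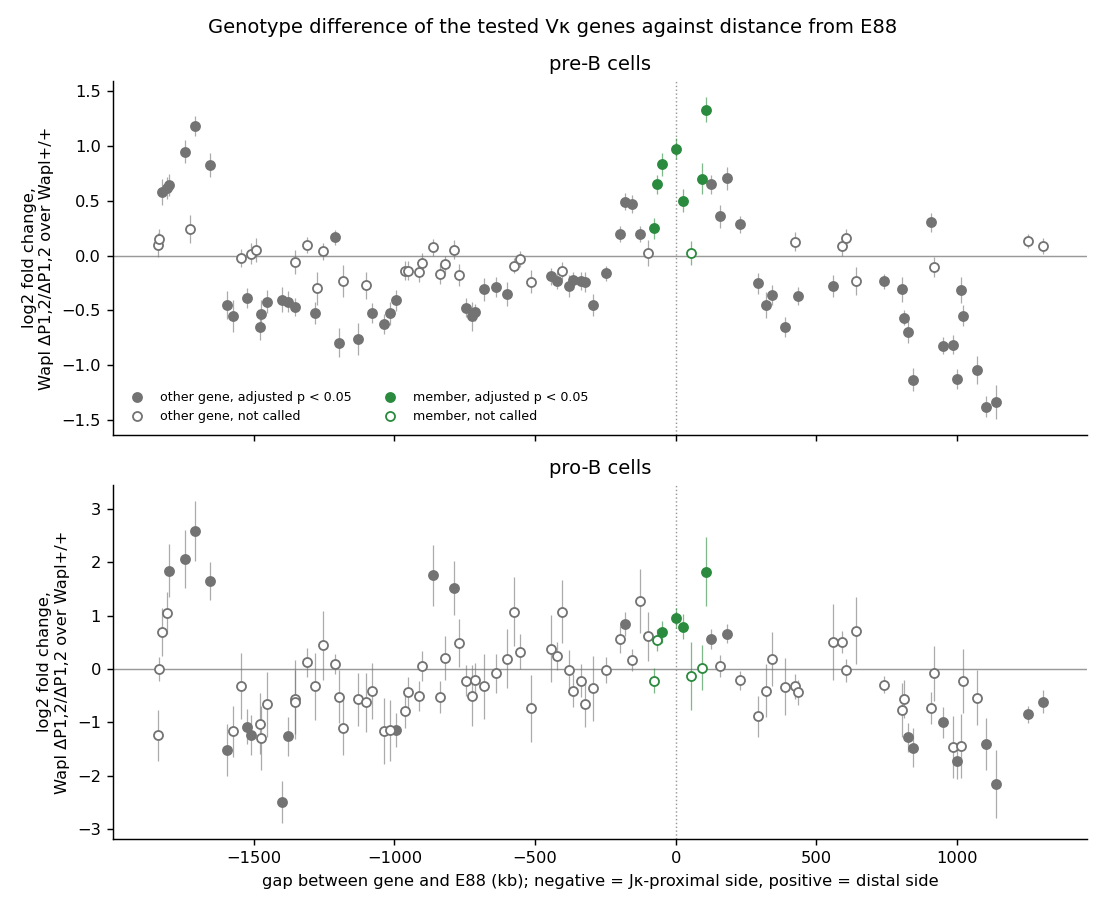
Log2 fold change between the genotypes with its SE (vertical axis) for all tested genes with a position, against the gap to E88 in kb (horizontal axis, negative on the JK-proximal side), in pre-B cells (top) and pro-B cells (bottom). Green symbols are the 8 genes and filled symbols have an adjusted p below 0.05. Besides the genes near E88, a group at the JK-proximal end lies above 0, and no gene between 250 and 500 kb was called higher.

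The members were set beside the other genes of their families. In pre-B cells 3 of the 4 VK4 members rose (median log2 fold change 0.77), against 4 of 28 tested VK4 genes elsewhere, of which 14 fell (median -0.18). The 4 that rose elsewhere were the JK-proximal neighbours IGKV4-78, IGKV4-79, IGKV4-80 and IGKV4-81. None of 7 other VK1 genes rose and 5 fell (median -0.45), whereas IGKV1-88 rose. None of 6 other VK12 genes rose and 4 fell (median -0.33), whereas IGKV12-89 rose. No VK13 gene outside the 8 could be tested. In pro-B cells 2 of 4 VK4 members rose (median 0.36), and 2 of 28 other VK4 genes rose and none fell (median 0.18). None of the 7 other VK1 genes rose and 4 fell (median -0.85), and none of the 6 other VK12 genes rose and 1 fell (median -0.66). These are counts, and the difference between members and other genes of a family was not tested.

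The genes whose level over the 20 libraries was most like the mean of the 8 (Pearson's r of log2 of the percentage plus 0.05) were IGKV3-10 (r = 0.73), IGKV19-93 (0.68) and IGKV10-95 (0.66). The latter are distal neighbours, 126 and 181 kb from E88, and IGKV3-10 lies 1710 kb away near the JK end. It rose from 0.641% to 1.52% in pre-B cells (log2 fold change 1.18, SE 0.09, adjusted p = 3.54e-08). In pro-B cells IGKV3-10 rose from 0.643% to 3.04%, with a larger SE (2.58, SE 0.56, adjusted p = 0.00468). The 20 libraries fall into 4 groups, so that these correlations partly compare groups. They also depend on single libraries, since values of 0 for IGKV4-90 and IGKV4-92 lower the mean of wild-type pro-B replicate 2. The share of each in the correlations was not tested.

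H3K27ac is a histone mark of active enhancers and promoters. The list of its peaks in pro-B cells had none over E88 or any of the 8 genes. Of its 17935 peaks 1 lay between the first and the last VK gene. This peak (chr6:69989959-69992717) was 1178 kb from E88 on the JK-proximal side and was the nearest to all 8 genes. The list comes from 1 library without ranked scores, so that weaker enrichment at E88 could not be examined.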

How the data were processed

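The authors sheared genomic DNA of sorted cells, ligated adapters with UMI sequences, captured JK-primed products and sequenced them on a MiSeq. For each Igk library they deposited 1 percent value per VK gene, and the total behind that percent value, the handling of reads that fit several genes, and the aligner used for VDJ-seq are not given in the sources used here. The deposited H3K27ac peak list has a score of 0 for every peak. Each library was rescaled to 100 over its listed VK genes. Positions (mm9) and the E88 interval come from the study's gene list, and sequence and annotation from NCBIM37, the same assembly.

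Genotypes and cell types were compared with limma 3.58.1 (R 4.3.3), with moderated variances that follow the mean level. Values entered as log2(percentage + 0.05), genes whose mean fell under 0.05% were left out, and p-values were Benjamini-Hochberg adjusted at 0.05 over all genes tested. The study's test was an unpaired two-tailed t-test per gene with Holm-Sidak correction, replaced because groups are small. Only libraries of the groups compared entered a fit, and all 20 entered the interaction. On simulated data with 30 genes changed by a log2 of 1, 30 were recovered in the pre-B and 17 in the pro-B genotype comparison, 14 and 29 in the wild-type and mutant cell type comparisons, and 18 in the interaction. With no gene changed 0 were called.

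The RSS was searched within 60 bases of the listed gene end, with a spacer of 11 to 13 bases and a heptamer that begins with its first 3 consensus bases. Gene sequences were compared with blastn 2.17.0+. The genes named are the 8 members, the 2 pseudogenes among them, 19 neighbours, the VK1, VK4, VK12 and VK13 families and the 3 genes most like the members' mean. Members and lists were chosen with earlier results of these data known. Alternatives covered Holm's adjustment, array weights, the series of libraries, other totals, centring, group medians, the logarithm with its pseudocount, the filter, and each library left out. Igh, Hi-C and Micro-C data were not analysed here.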

Additional observations from a re-analysis of the deposited data

Results flagged for a closer look

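The values of the 8 genes and their sum in each of the 4 groups, 36 sets in all, were searched for a library set apart from the rest of its group by Dixon's gap test, which chance alone passes in about 1 set of 20. It picked out 2 values. IGKV4-90 had 0.121% in replicate 2 of the mutant pre-B cells, below the other 3 libraries of that group, which lay within 0.138% to 0.140%. IGKV4-92 had 3.67% in replicate 3 of the mutant pro-B cells, above the other 5 libraries of that group (2.13% to 2.55%). Without that library the log2 fold change of IGKV4-92 in pro-B cells was 1.72 (adjusted p = 0.102). No member passed the test of a genotype difference that differs between the cell types.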

How the results depend on the processing

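In pre-B cells 6 to 7 of the 8 genes rose under every alternative, against 15% to 24.3% of all genes tested. The difference of the sums of the 8 genes was 3.79 to 4.81 percentage points with any library left out. In pro-B cells 1 gene rose with Holm's adjustment (2.88% of all genes tested) and 0 in series 82 alone (0% of all genes), 1 to 5 with a library left out (6.73% to 16.3%), and the sums differed by 5.11 to 6.28 points. For the wild-type cell type comparison 0 genes were higher with Holm's adjustment (2.86% of all genes) and 0 with the series as a covariate (1.9%), 5 with array weights (16.2%), 2 without the 2 most used genes in the total (12.3%, and the sums differed by 4.41 points), 4 with centring (14.3%) and 0 to 3 with a library left out (2.86% to 14.2%). For the mutant cell type comparison 1 gene was higher with Holm's adjustment (5% of all genes), 1 with the series as a covariate (5%), 1 in the series shared by both cell types alone (4%), 4 with array weights (15%), 4 without the 2 most used genes (15.7%), 4 without the members in the total (13.7%), 6 with centring (33%) and 2 to 4 with a library left out (10% to 15%). There, centring moved the median log2 fold change of all 100 genes from -0.51 to 0.098. Negative values became positive for the members IGKV13-84 (0.59), IGKV4-90 (0.11) and IGKV4-91 (0.60) and, among the neighbours, for IGKV4-78 (0.088), IGKV4-80 (0.60) and IGKV4-81 (0.52), among others. The interaction called 0 members under every alternative. Spearman's rho with distance in the wild-type cell type comparison was -0.34 for functional genes in place of -0.27. The cause of these shifts was not tested. An RSS search window of 30 bases and distances from peak midpoints changed no statement. No paired analysis was possible because the labels give no replicate numbers that link libraries of different groups. Values in pro-B cells were coarse, the smallest above 0 being up to 0.610% in a library, and how far this limits precision was not tested.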

Other observations

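The spread of the summed share of the 8 genes differed between the pre-B groups. It had an SD of 0.0560 percentage points around 5.54% in Wapl+/+ and of 1.41 around 9.80% in Wapl ∆P1,2/∆P1,2 libraries, which was not tested. Mutant replicates 2 and 4, with sums of 10.7% and 11.2%, had the 2 highest values of the group in IGKV13-84, IGKV13-85, IGKV4-86, IGKV12-89, IGKV4-91, IGKV4-92 and IGKV1-88.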
